A study of Mus musculus with 80 samples.

Results

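The cytosolic heat shock chaperones with Hsph1 were defined as 10 genes: Hsph1, Hspa1a, Hspa1b, Hspa8, Hspb1, Dnajb1, Hsp90aa1, Hsp90ab1, Chordc1 and Stip1. All probes whose gene symbol is one of these names were taken from the deposited table, which gave 10 of its 25697 probes. They stand for 8 genes of the 16593 with a probe. Hspa8 and Hsp90aa1 have 2 probes each and the other 6 genes have 1. Hspa1b and Hsp90ab1 had no probe with their symbol and were not analysed here.

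Transcripts were measured on Illumina MouseRef-8 arrays in kidney cortex, kidney medulla, liver, lung and spleen of female BALB/c nude mice, which carry the Foxn1 nude mutation and lack T cells. The mice received the α-emitter 211At, an isotope of astatine, by tail vein injection, as 1.7 kBq with sacrifice after 1 h, 6 h or 7 d (n = 3 each), 105 kBq with sacrifice after 1 h (n = 2), or 7.5 kBq with sacrifice after 6 h (n = 2). Control mice (n = 3) were mock-treated, per the methods with phosphate-buffered saline, received no astatine and were sacrificed at 24 h. Each tissue thus has 16 arrays, and the series has 80. Since no control was sacrificed at 1 h, 6 h or 7 d, exposure and time of sacrifice cannot be told apart in any comparison with the control group. All comparisons with controls share the same 3 control mice. The labels do not say which tissues came from the same mouse.

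Hsp70 proteins bind unfolded stretches of other proteins and release them after exchange of their nucleotide. J proteins such as Dnajb1 bring them their clients, and Hsp110 proteins such as Hsph1 drive the exchange. Stip1 hands clients from Hsp70 to Hsp90, and small heat shock proteins such as Hspb1 hold unfolding proteins in a soluble state. In mammalian cells the transcription factor Hsf1 induces many of these genes when unfolded protein accumulates, through heat shock elements, which are alternating GAA and TTC units set 2 bases apart.

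Values are log2 of the deposited quantile-normalised signal. They ran from a signal of 88.7 to 27812 over the table, with a median of 120.5. A level of 117 (6.87 on the log2 scale) was taken as background, and a probe was tested in a tissue when at least 2 of the 16 arrays exceeded it. The dimmer Hsp90aa1 probe lay between 6.59 and 6.97 in all 80 arrays and was tested nowhere. The other 9 probes were tested in each tissue, giving 45 member tests per comparison. Here a probe counts as called when its limma p, adjusted by Benjamini-Hochberg over the tested probes of the tissue, is under 0.01 and its change is at least 1.5-fold. The number of arrays limits the precision, and p-values measure the spread between these arrays. In a tissue sample, a change in the number of cells of a type and a change in RNA per cell cannot be told apart.

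In 4 of the 80 arrays, transcripts of a tissue other than the labelled one were found. In the spleen array 1.7 kBq 7 d replicate 1, the median of the exocrine pancreas markers lay 6.04 (log2) above that of the median spleen array. Hepatocyte markers lay 5.49 above in the cortex array 7.5 kBq 6 h replicate 1 and 7.28 above in the array labelled medulla 1.7 kBq 7 d replicate 1. In the latter the hepatocyte median was 14.19, within the range of the liver arrays, and the markers of the proximal tubule (median 6.80) and of the loop of Henle and collecting duct (6.82) were at background, so its values go against its label. Proximal tubule markers lay 4.33 above in the lung array 7.5 kBq 6 h replicate 1. Markers of the labelled tissue were high in liver (hepatocyte median 14.08 to 14.38 over its arrays) and in lung (epithelium, 12.86 to 13.59). In the median kidney array the proximal tubule list read 13.28 in cortex and 13.18 in medulla. The list of the loop of Henle and collecting duct read 11.28 and 10.40. The proximal tubule list thus did not set the kidney compartments apart, and the other list was not higher in medulla. All tests below include these arrays unless their absence is stated.

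At 1 h after 1.7 kBq the chaperones were higher than in control mice in most of the tests. The members were chosen with earlier results of these data known, so their counts beside those of all probes are descriptions. Hspa1a in liver and spleen passed the filter on low signals only with the help of 1 h arrays, which favours a higher 1 h group, and both are left out of the counts of direction. Of the other 43 member differences from control, 43 were above 0, with a median of 0.93 on the log2 scale, where 47.9% of the tests on all probes so filtered were above 0. In 33 of the 43 the 3 exposed arrays all lay above the 3 controls, where 9.5% of these tests had such groups. The threshold was passed by 12 of all 45 member tests, each higher and neither of the left-out tests among them, where 0.229% of all tests were called higher. Among 9 probes per tissue, 4 were called in cortex (background 0.232%), 5 in liver (0.761%), 2 in lung (0.069%), 1 in spleen (0.00607%) and 0 in medulla (0.024%). No member was called lower in any of the 11 comparisons made, and the share of all tests called lower is not given here. At 6 h 2 members were called, Hspa8 and Dnajb1 in liver, and at 7 d none was.

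Hsph1 (chr5:149616843-149636498, GRCm38.p6) encodes the Hsp110 protein also known as Hsp105, an exchange factor of Hsp70. Its level in control mice was highest in medulla (10.16 to 10.62) and cortex (9.81 to 10.31), whose ranges overlapped. Spleen followed with 9.21 to 10.01, overlapping cortex. Lung (8.53 to 9.01) and liver (8.10 to 9.07) overlapped each other and lay below the spleen.

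The promoter of Hsph1 is shown because it holds a run of heat shock element units on both sides of the start of transcription. RefSeq promoter windows on GRCm38.p6, of 250 bases before and 50 after the start, were searched on both strands for 3 units, GAANNTTCNNGAA or TTCNNGAANNTTC, and for 2 units, GAANNTTC or TTCNNGAA. Each 3-unit pattern contains the 2-unit patterns. Of 32851 windows, 198 (0.603%) held 3 units and 4946 (15.1%) held 2 units. Capitals mark the matches here and in the sequences further on, and positions count from 1 at the first transcribed base, with −1 just before it. The upper stretch, chr5:149636337-149636436 on the minus strand, covers positions −100 to −1, and the lower one, chr5:149636287-149636316, covers positions 21 to 50.
Hsph1 upstream: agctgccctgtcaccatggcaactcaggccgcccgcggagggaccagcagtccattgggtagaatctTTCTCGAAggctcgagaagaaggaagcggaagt
Hsph1 downstream: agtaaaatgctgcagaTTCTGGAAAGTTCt
The 3-unit match lay at 37 to 49 and the 2-unit match at −33 to −26. A second RefSeq start of Hsph1 places them at 16 to 28 and −54 to −47. A match of letters is no evidence that a factor binds there.

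In lung, Hsph1 was 9.01, 8.86 and 8.53 in the controls and 11.52, 11.20 and 11.46 at 1 h after 1.7 kBq. The groups were far apart, and the rise of 2.59 ± 0.27 (SE, n = 3 and 3; 6.04-fold, limma adjusted p = 0.00222) ranked first of 15931 probes. This call was lost when 1.7 kBq 1 h replicate 1 or 3, or any 1 of the 3 controls, was left out, with an adjusted p of up to 0.0131 while the rise stayed between 2.46 and 2.70. In spleen the controls were 10.01, 9.63 and 9.21 and the 1 h arrays 11.66, 11.64 and 11.84. All exposed arrays were again above all controls (2.10 ± 0.17, 4.28-fold, adjusted p = 0.000501). Hsph1 was the only probe of 16481 called higher in spleen at this time. In liver the signals were 9.07, 8.10 and 8.22 in the controls and 10.89, 10.95 and 10.61 at 1 h. Control replicate 1 was the highest of its group and still below the lowest exposed array, and the rise was 2.35 ± 0.28 (5.11-fold, adjusted p = 0.000247).

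In both kidney compartments the difference was smaller and missed the threshold. Cortex controls had 10.31, 9.81 and 9.82, and the 1 h arrays 10.85, 10.95 and 11.17. The groups did not overlap, and the difference was 1.01 ± 0.18 (2.02-fold, adjusted p = 0.0191). In medulla the controls had 10.26, 10.16 and 10.62, and the 1 h arrays 11.68, 11.43 and 11.87. This difference of 1.31 ± 0.17 (2.49-fold) had an adjusted p of 0.0108, and of 0.000979 without the array labelled medulla 1.7 kBq 7 d replicate 1, whose markers are those of liver. Without that array and the other 3 such arrays, 16 of the 45 member tests were called at 1 h, and the 4 gained were Hsph1, Hspa1a, Dnajb1 and Chordc1 in medulla (background there 0.313%).

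**Figure D1:**
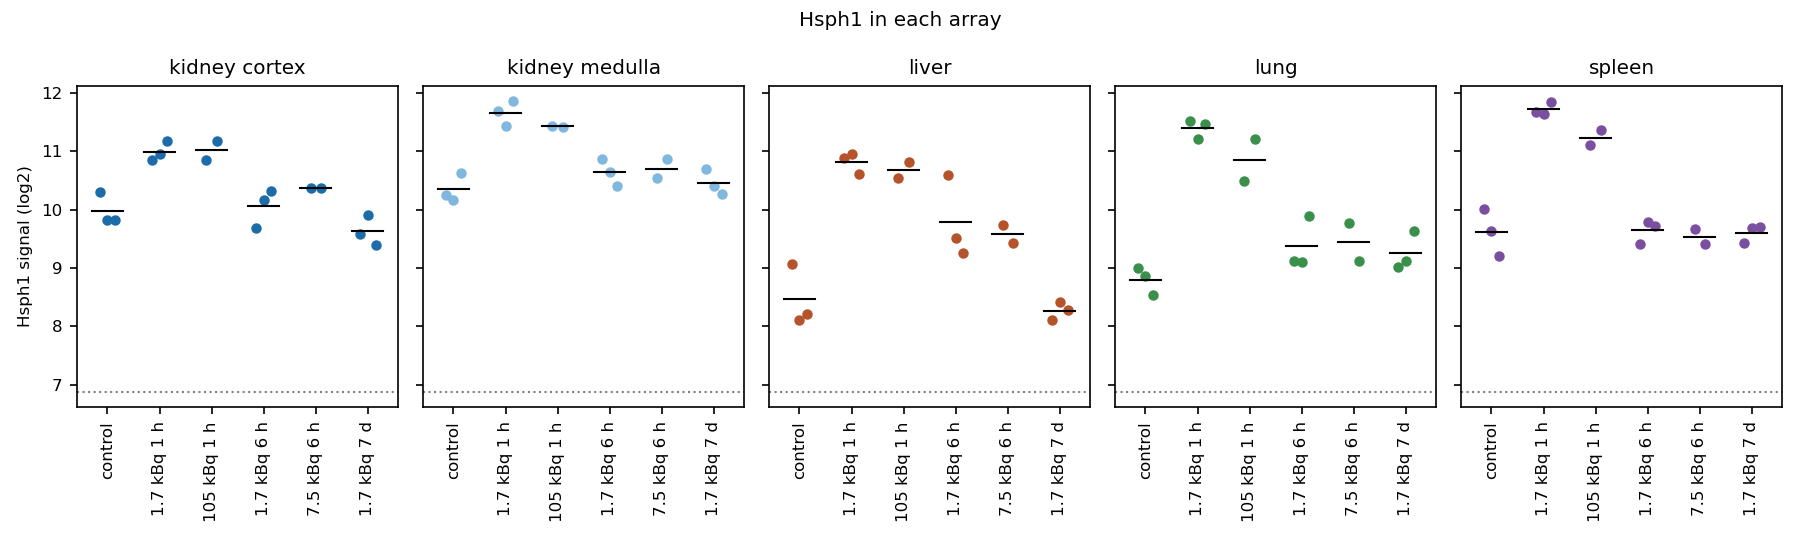
Log2 signal of Hsph1 in each of the 80 arrays, in 1 panel per tissue and 1 column per group. Points are single arrays, bars are group means, and the dotted line is the background level of 6.87. In each tissue the 1.7 kBq 1 h arrays lie above all 3 controls. The 1.7 kBq 6 h arrays also do so in liver and lung, and the 1.7 kBq 7 d arrays, narrowly, in lung.

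Hspa1a (chr17:34969359-34972156) encodes the stress-inducible cytosolic Hsp70. It is nearly identical to its neighbour Hspa1b, and their promoter windows share 296 of 300 bases (98.7%), so the probe may read both genes. The stretch from −120 to −1 (chr17:34972157-34972276, minus strand) is shown for its single 2-unit match at −104 to −97.
Hspa1a upstream: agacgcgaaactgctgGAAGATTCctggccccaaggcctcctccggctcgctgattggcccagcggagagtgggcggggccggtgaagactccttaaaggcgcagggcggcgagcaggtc
In cortex the signals were 7.91, 8.10 and 7.68 in the controls and 9.08, 9.25 and 8.93 at 1 h. The lowest exposed array was well above the highest control, and Hspa1a was called (1.19 ± 0.15, 2.28-fold, adjusted p = 0.00203). The call was lost without 1.7 kBq 1 h replicate 1, without replicate 2 or without control replicate 3, with an adjusted p of up to 0.0138. In medulla Hspa1a went from 8.44, 8.43 and 8.32 to 9.51, 9.33 and 10.10. The groups were apart, with a difference of 1.25 ± 0.32 and an adjusted p of 0.163, or 0.00529 without the arrays that carried another tissue's transcripts.

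Lung gave a difference of the same size for Hspa1a, from 6.95, 7.30 and 7.09 to 8.44, 8.01 and 8.51 (1.21 ± 0.18, adjusted p = 0.0137). In spleen the controls (6.77, 6.75 and 6.85) were at background and the 1 h arrays (7.35, 7.57 and 7.92) above it, a measured difference of 0.82 (adjusted p = 0.0115). In liver the probe stayed near the background level of 6.87, at 6.65, 6.69 and 6.66 in the controls and 6.93, 6.81 and 6.89 at 1 h (0.21, adjusted p = 0.119).

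Hspa8 (chr9:40801276-40805202) encodes Hsc70, the Hsp70 that cells make at all times. Its brighter probe was called in liver, where the controls had 13.50, 13.21 and 13.09 and the 1 h arrays 14.28, 14.48 and 14.19. No exposed array reached down to the controls (1.05 ± 0.12, 2.07-fold, adjusted p = 0.000136). In cortex the signal went from 14.40, 14.36 and 14.46 to 14.76, 14.55 and 14.50, and in lung from 14.59, 14.28 and 14.11 to 14.59 in all 3 arrays. The differences outside liver were 0.20 to 0.37, none of them called. Outside liver the control signals of this probe were among the 31 brightest of 25697 probes in every control array, and its highest value, 14.76, was the highest of the table. In liver controls its brightness rank was 74 to 116. The part of this bright end of the scale in the small differences outside liver was not tested. The dimmer Hspa8 probe had differences of 0.90 ± 0.21 in liver (adjusted p = 0.0229), 0.71 in cortex, 0.99 in lung, 0.28 in spleen and 0.01 in medulla, and was called in none. Its liver signals, 10.30, 10.94 and 11.14 in the controls and 11.49, 11.95 and 11.62 at 1 h, did not overlap.

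Dnajb1 (chr8:83608175-83612653) encodes a J protein that stimulates the ATPase of Hsp70. It gave the smallest adjusted p among the members. In liver it read 9.26, 9.26 and 9.19 in the controls and 10.22, 10.11 and 10.18 at 1 h. The arrays within a group lay close together, and the rise of 0.93 ± 0.08 (1.91-fold) had an adjusted p of 1.76e-05. Cortex went from 9.84, 9.86 and 9.67 to 10.40, 10.46 and 10.42 (0.63 ± 0.07, 1.55-fold, adjusted p = 0.000403). Without cortex control replicate 3 this rise was 0.57, under the 1.5-fold limit. In spleen Dnajb1 did not separate the groups, with 10.61, 10.98 and 10.48 in the controls and 10.92, 10.88 and 10.37 at 1 h. That difference was 0.03, with a 95% interval of −0.36 to 0.42. Medulla (0.61, adjusted p = 0.0324) and lung (0.43, adjusted p = 0.151) were not called, although their 1 h arrays all lay above the controls. Neither of the RefSeq promoter windows of Dnajb1 held a 2-unit match.

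Hspb1 (chr5:135887919-135889563) encodes the small heat shock protein Hsp25 of the mouse. The stretch from −130 to −31 (chr5:135887789-135887888, plus strand) is shown for its pair of 2-unit matches, at −117 to −110 and −97 to −90.
Hspb1 upstream: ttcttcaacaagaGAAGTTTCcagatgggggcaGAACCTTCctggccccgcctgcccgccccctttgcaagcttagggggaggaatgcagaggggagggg
Its largest difference was in lung, from 9.58, 9.05 and 9.30 in the controls to 11.16, 11.90 and 11.00 at 1 h. The groups were far apart, and the adjusted p was 0.0167 (2.04 ± 0.32, 4.12-fold). The heart muscle markers, 5 of 6 of them measured, varied between lung arrays, with medians of 9.69, 8.54 and 7.24 in the controls and 8.0, 10.22 and 8.31 at 1 h. These ranges overlapped, and their part in the Hspb1 result was not tested. Hspb1 differences were 1.30 in liver (adjusted p = 0.0159), 1.13 in medulla, 0.94 in cortex and 0.78 in spleen. In all 5 tissues the 1 h arrays lay above the controls, and in none was Hspb1 called.

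Hsp90aa1 (chr12:110691036-110696395) encodes the inducible cytosolic Hsp90. Its arrays scattered widely. Cortex controls spanned 7.79 to 9.21 and cortex 1 h arrays 7.94 to 9.37, a difference of 0.04 ± 0.38. In lung the groups separated, at 9.14, 8.25 and 9.03 against 10.47, 10.12 and 10.81 (1.66 ± 0.30, adjusted p = 0.0376). Medulla (1.07), liver (0.39) and spleen (0.36) had overlapping groups, and Hsp90aa1 was called in no tissue.

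Chordc1 (chr9:18292267-18314000) encodes a CHORD-domain protein that binds Hsp90. The bases from −7 to 23 of its promoter window (chr9:18292260-18292289, plus strand) are shown because GAA and TTC alternate there through 5 units in a row, so that 3-unit matches at −4 to 9, 2 to 14 and 7 to 19 overlap.
Chordc1 start: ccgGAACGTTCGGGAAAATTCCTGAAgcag
Cortex controls of Chordc1 had 9.44, 9.27 and 9.28, and the 1 h arrays 10.34, 10.41 and 10.32. The groups were tight and apart (1.02 ± 0.09, 2.03-fold, adjusted p = 0.000143). Liver went from 9.26, 9.19 and 9.04 to 10.49, 10.40 and 10.39, the same pattern (1.26 ± 0.14, 2.39-fold, adjusted p = 0.000131). Neither call was lost when single arrays were left out. In medulla the controls had 9.24, 9.21 and 9.22 and the 1 h arrays 10.03, 10.35 and 10.40, groups just as clearly apart. Here the adjusted p was 0.122 (1.04 ± 0.24), or 0.000411 without the arrays that carried another tissue's transcripts. At 7 d the array labelled medulla with liver markers read 10.36, and the other arrays so labelled read 9.25 and 9.22. Lung (0.90, adjusted p = 0.0167) and spleen (0.71, adjusted p = 0.106) had groups that did not overlap and were not called.

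Stip1 (chr19:7020696-7040026) encodes Hop, the adaptor that links Hsp70 to Hsp90. No 2-unit match lay in its promoter window. It was called in 3 tissues. In cortex the signals were 9.24, 9.32 and 9.34 in the controls and 10.27, 10.11 and 10.01 at 1 h (0.83 ± 0.10, 1.78-fold, adjusted p = 0.00132, or 0.0105 without 1.7 kBq 1 h replicate 1). In liver they were 9.16, 8.92 and 9.10 against 10.18, 9.95 and 10.06 (1.00 ± 0.13, 2.00-fold, adjusted p = 0.000466). In both tissues every exposed array exceeded every control. Lung went from 9.04, 9.09 and 8.97 to 10.30, 9.78 and 9.95 (0.98 ± 0.11, 1.97-fold, adjusted p = 0.00328). The lung call was lost without 1.7 kBq 1 h replicate 3 or without any 1 of the 3 controls, with an adjusted p of up to 0.017. Medulla had 9.42, 9.32 and 9.37 in the controls and 9.45, 9.89 and 9.98 at 1 h, groups that nearly met (0.40 ± 0.20, adjusted p = 0.51). Spleen control replicate 3, at 9.15, lay apart from the other spleen controls at 10.19 and 10.06, and the spleen difference of 0.86 had an adjusted p of 0.287.

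**Figure D2:**
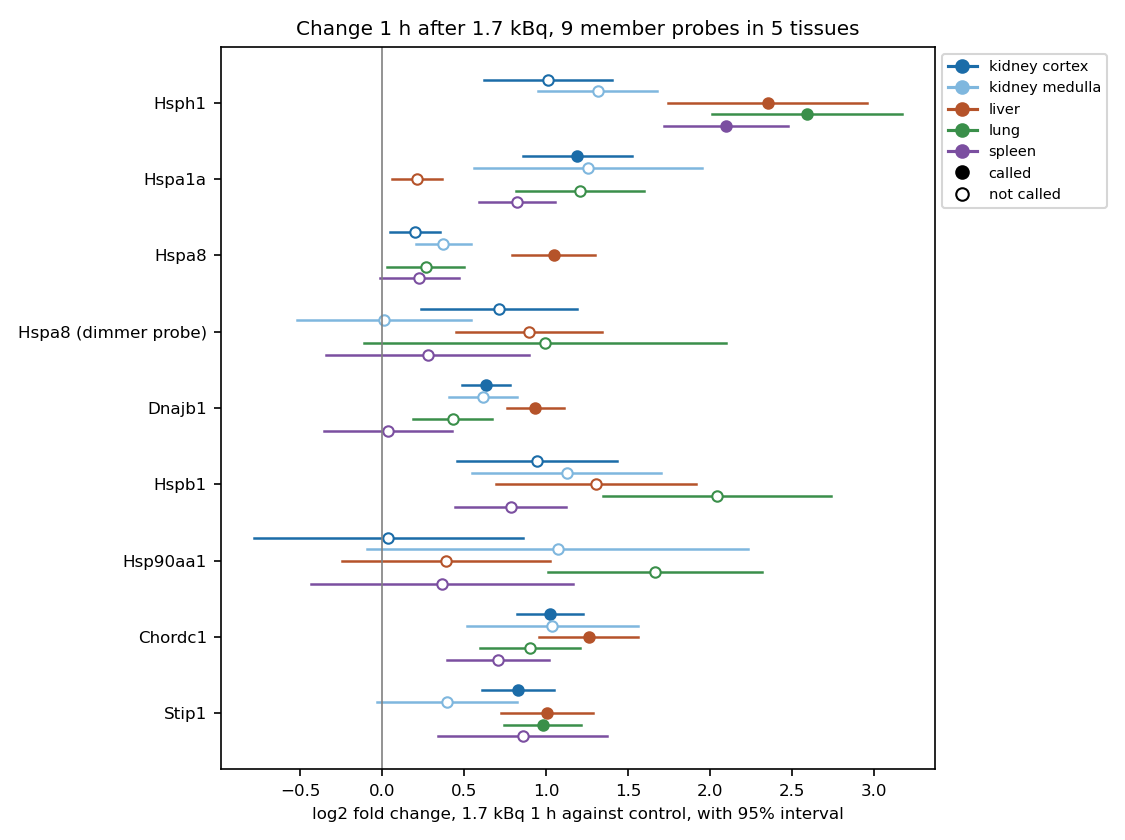
Log2 fold change at 1 h after 1.7 kBq against control for the 9 member probes in 5 tissues, with 95% intervals from limma. Filled points are called and open points are not. No point lies below 0, the largest being Hsph1 in lung at 2.59 and the smallest the dimmer Hspa8 probe in medulla at 0.01.

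Whether the 1 h response differed between tissues was tested by a limma F test on all 80 arrays, over the 13148 probes kept in all tissues. Tissues of 1 mouse are not independent in this test. Under an adjusted p of 0.01 the tissues differed for 3 of the 9 member probes, where 0.662% of all probes passed. These were the brighter Hspa8 probe (adjusted p = 0.000234), with a change of 1.05 in liver and 0.20 to 0.37 elsewhere, where it is at the top of the scale, Dnajb1 (0.00705), from 0.93 in liver to 0.03 in spleen, and Hsph1 (0.00798), from 2.59 in lung to 1.01 in cortex. The dimmer Hspa8 probe, with changes of 0.90 in liver, 0.99 in lung and 0.71 in cortex, did not pass (adjusted p = 0.665). Hspa1a had an adjusted p of 0.0779, and of 0.00412 without the 4 arrays that carried another tissue's transcripts, where 1.28% of all probes passed. In liver and spleen, however, its controls were at background and it passed the filter only with the help of 1 h arrays. The test therefore cannot tell a smaller response of Hspa1a there from the floor of the signal. Chordc1 and Stip1, with an adjusted p of 0.69 and 0.546, did not pass, which does not show that their responses were alike. The Hspa8 difference had an adjusted p of 0.108 after cyclic loess normalisation of the signals and passed without any 1 of the 30 arrays involved. The Hsph1 difference had an adjusted p of 0.0119 with no filter on dim probes and 0.0174 after cyclic loess, and the Dnajb1 difference 0.0161 with background subtracted and 0.0123 with a trended and robust variance. With single arrays left out, the Hsph1 difference reached 0.03 without cortex control replicate 1, and the Dnajb1 difference reached 0.0612 without spleen 1.7 kBq 1 h replicate 3. Leaving out 1 array ended the Hsph1 difference for 19 of the 30 arrays, namely cortex 1 h replicates 1 and 2 and controls 1 to 3, liver 1 h replicates 1 and 2 and controls 2 and 3, lung 1 h replicates 1 and 3 and controls 2 and 3, medulla 1 h replicates 1 and 2 and controls 1 and 3, and spleen 1 h replicate 3 and control 2. The Dnajb1 difference ended for 9, all 6 of liver, spleen 1 h replicate 3 and spleen controls 1 and 2.

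At 6 h after 1.7 kBq few member differences passed the threshold. Of the 45 member differences, 35 were above 0, with Hspa1a in liver and spleen included. Their median was 0.12, and that of all tests −0.004. The threshold was passed by 2 of the 45, called higher, where 0.0922% of all tests were. Both lay in liver. Hspa8 (brighter probe) read 14.42, 14.02 and 14.13 at 6 h, above all 3 controls, with a difference of 0.92 ± 0.12 (1.89-fold, adjusted p = 0.000556). Dnajb1 read 10.07, 9.92 and 9.82, also above all controls (0.70 ± 0.08, 1.62-fold, adjusted p = 0.000336). Neither call was lost when single arrays were left out. The dimmer Hspa8 probe read 11.21, 11.59 and 11.26 in liver, also above all controls (0.56), and differed from the brighter one in sign in cortex (−0.02), medulla (−0.52) and spleen (−0.70), where it was not called. Hsph1 in liver read 10.59, 9.51 and 9.25 at 6 h, so that replicate 1 was near the 1 h level and the others between the 1 h and control levels (1.32 ± 0.28, adjusted p = 0.0256). The same liver replicate was also the highest of its group for Chordc1 (10.28 against 9.70 and 9.54) and Stip1 (9.88 against 9.48 and 9.23).

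Outside liver, Hsph1 at 6 h differed from control by 0.02 in spleen, 0.07 in cortex, 0.29 in medulla and 0.57 in lung. Its spleen arrays, 9.42, 9.78 and 9.72, were within the control range. Hspa1a in cortex read 7.61, 8.06 and 7.85 at 6 h, overlapping its controls, with a difference of −0.06 from them. Chordc1 in cortex and Stip1 in lung (9.04, 9.04 and 8.96) overlapped their controls too, with differences of 0.05 and −0.02. In lung, Hspb1 read 10.39, 10.63 and 10.40 at 6 h, all above the controls and below the 1 h arrays, with a difference of 1.16 ± 0.32 and an adjusted p of 0.391. The difference of the 6 h effect between tissues, a test added after the values had been seen, passed for the brighter Hspa8 probe alone among members (adjusted p = 3.82e-05, where 0.319% of all probes passed).

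At 7 d after 1.7 kBq no member was called in limma, where 0.00719% of all tests were called higher. An unadjusted p under 0.05 was found in 7 of the 45 tests, and the share of all tests with such a p was not counted. The median member difference was 0.00. Hsph1 differed from control by −0.35 in cortex to 0.46 in lung. In lung its arrays, at 9.02 to 9.63, all lay just above the highest control (9.01). In liver Hsph1 read 8.10, 8.41 and 8.27, overlapping the controls. Of the 45 member tests, 5 had higher groups without overlap at this time, where 5.97% of all tests did. Another 2 had lower groups without overlap, a share not given here for all tests. Dnajb1 gave 3 of the 5 higher ones. In lung it read 10.69, 10.47 and 10.58, all above the controls, with a difference of 0.49 ± 0.11 and an adjusted p of 1. In medulla it read 10.19, 10.04 and 10.26, of which the first comes from the array with liver markers (0.38, adjusted p = 0.495, or 0.37, adjusted p = 0.592, without it), and in liver 9.38, 9.47 and 9.54 (0.22, adjusted p = 0.428). Hsp90aa1 in liver lay below all controls, at 7.95, 8.11 and 7.74 (−0.83, adjusted p = 0.426).

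The direct comparisons between times do not use the control means, although the control arrays enter the estimate of the spread. From 1 h to 6 h, 4 member tests were called higher at 1 h, where 0.00958% of all tests were. Hsph1 was called in spleen (2.07 ± 0.17, 4.21-fold, adjusted p = 0.000575), whatever single array was left out. Chordc1 was called in cortex (0.98 ± 0.09, adjusted p = 0.00134), and lost the call without 1.7 kBq 1 h replicate 1 or 6 h replicate 1 (adjusted p of up to 0.0151). Hspa1a in cortex (1.25 ± 0.15, adjusted p = 0.00619) was called with 7 of the 16 arrays left out in turn and lost, at up to 0.0422, without any 1 of the 1 h arrays, 6 h replicate 1 or 3, 7 d replicate 1 or 2, or control replicate 1 or 2. Stip1 in cortex (0.77 ± 0.10, adjusted p = 0.00959) was lost without any array but 6 h replicate 2, at up to 0.0601, and at 0.0168 without the arrays that carried another tissue's transcripts. In lung the Hsph1 difference was as large as in spleen, 2.02 ± 0.27, with an adjusted p of 0.0461.

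Against 7 d, the 1 h arrays were called higher in 12 of 45 member tests (0.0826% of all tests). Liver gave 5 of them, Hsph1 (2.56 ± 0.28, 5.88-fold, adjusted p = 0.000668), the brighter Hspa8 probe (0.94), Dnajb1 (0.71), Chordc1 (1.10) and Stip1 (1.09). Of these, Chordc1 alone lost the call, at 0.0101, without liver 7 d replicate 1. Cortex gave another 5, Hsph1 (1.36, adjusted p = 0.00504), Hspa1a (1.37), Hspb1 (1.49, adjusted p = 0.00964), Chordc1 (1.09) and Stip1 (0.99). The cortex calls of Chordc1 and Stip1 held without any single array. Hsph1 was lost without any 1 h array or without 7 d replicate 1 or 3 (up to 0.0303), and Hspa1a without 1 h replicate 1 or 7 d replicate 1 or 3 (up to 0.0129). Hspb1 was lost, at up to 0.0533, without any of 11 cortex arrays, and kept without either 105 kBq array, 6 h replicate 2 or control replicate 1 or 3. Spleen Hsph1 was called (2.11 ± 0.17, adjusted p = 0.000461), also without the spleen array with pancreas transcripts (2.03, adjusted p = 0.00487). Lung Stip1 was called (0.98, adjusted p = 0.00783) and lost, at up to 0.0532, without any of 11 lung arrays. It was kept without 1 h replicate 1 or 2, either 105 kBq array or control replicate 2. Without the 4 arrays that carried another tissue's transcripts, Chordc1 was called in medulla (1.03, adjusted p = 0.00615), while Hspb1 in cortex and Stip1 in lung were not (adjusted p = 0.0157 for both).

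Between 6 h and 7 d, the brighter Hspa8 probe in liver was the only member call (0.81 ± 0.12, 1.76-fold, adjusted p = 0.00583), where 0.0132% of all tests were called higher. Its liver arrays read 13.32, 13.33 and 13.48 at 7 d, below all 6 h arrays. The call was lost, at up to 0.0429, without 6 h replicate 1 or 3, either 7.5 kBq array, any 7 d array or control replicate 2.

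**Figure D3:**
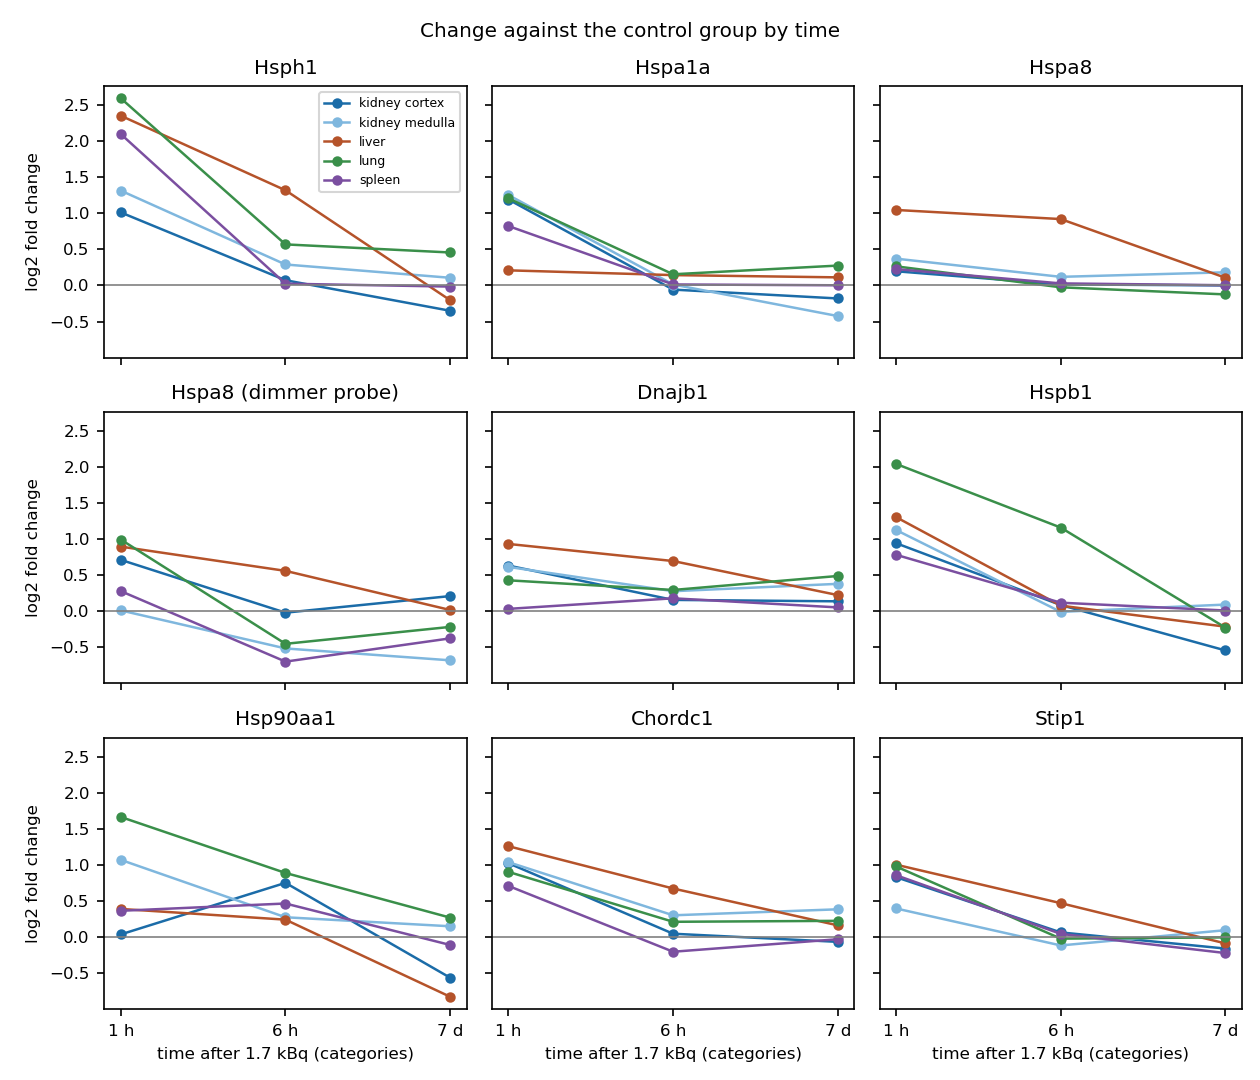
Log2 fold change against control at 1 h, 6 h and 7 d after 1.7 kBq, in 1 panel per member probe and 1 line per tissue. The times are spaced as categories and each point is the difference of 2 group means (n = 3 each). In liver the brighter Hspa8 probe is at 0.92 at 6 h, where the other tissues lie at −0.03 to 0.12, and in lung Hspb1 goes from 2.04 at 1 h to 1.16 at 6 h, called at neither time.

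The groups given higher activities were separate mice, compared with the same controls. At 1 h after 105 kBq, 7 of the 45 member tests were called, where 0.192% of all tests were called higher. Again without Hspa1a in liver and spleen, 42 of 43 differences were above 0 (median 0.88), and in 37 the exposed arrays all lay above the controls, where 13.8% of the tests on all probes so filtered had such groups. Liver gave 5 of the calls. Hsph1 read 10.55 and 10.81 there (2.21 ± 0.32, 4.64-fold, adjusted p = 0.00121), above all controls. The brighter Hspa8 probe read 14.40 and 14.42 (1.14, adjusted p = 0.000233), and Dnajb1 10.37 and 10.19 (1.04, adjusted p = 2.21e-05). Chordc1 rose by 1.27 and Stip1 by 1.22. Without liver 105 kBq replicate 2, Hsph1 and Stip1 were not called (adjusted p = 0.031 and 0.0122).

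The other calls at 105 kBq were Chordc1 in cortex and Stip1 in lung. Chordc1 read 10.20 and 10.17 in cortex (0.86 ± 0.10, adjusted p = 0.00162), and lost the call without either 105 kBq array or control replicate 2 or 3, at up to 0.0283. Stip1 read 10.04 and 9.94 in lung (0.95 ± 0.12, adjusted p = 0.00867), and lost it without any of 13 lung arrays, at up to 0.046. It kept it only without 1.7 kBq 1 h replicate 1 or 2 or 7 d replicate 1. Hsph1 missed the threshold in lung (10.49 and 11.21; 2.05, adjusted p = 0.0131), spleen (11.11 and 11.36; 1.62, adjusted p = 0.0123), medulla (1.08, adjusted p = 0.0625) and cortex (1.03, adjusted p = 0.0357). All of these arrays lay above all controls of their tissue. Without the arrays that carried another tissue's transcripts, Hsph1 passed in spleen (adjusted p = 0.00633, background 0.0428%) and medulla (0.00918, background 0.209%), Chordc1 passed in medulla (0.00306), and Stip1 in lung did not (0.0193).

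The members called nowhere at 105 kBq had differences of the same direction in most tissues. Hspa1a read 8.44 and 8.81 in cortex, above its controls but below all 3 arrays of 1.7 kBq (0.73, adjusted p = 0.068). In lung Hspa1a read 8.46 and 8.05 (1.14, adjusted p = 0.0311). Hspb1 read 10.20 and 11.44 in lung, arrays far from each other and both above the controls (1.51 ± 0.36, adjusted p = 0.11). Hsp90aa1 was again highest in lung, at 10.44 and 10.42 against controls of 8.25 to 9.14 (1.62 ± 0.34, adjusted p = 0.0613). In liver Hsp90aa1 differed by −0.02, the 1 member difference below 0. Dnajb1 in cortex had an adjusted p of 0.0054 with a change of 1.44-fold, under the fold limit.

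At 6 h after 7.5 kBq, 36 of the 45 member differences were above 0, with Hspa1a in liver and spleen included. Their median was 0.24, and that of all tests −0.008. In this group 2 members were called, where 0.198% of all tests were called higher. They were again the brighter Hspa8 probe (14.05 and 14.05; 0.78 ± 0.13, adjusted p = 0.00345) and Dnajb1 (9.89 and 9.80; 0.61 ± 0.09, adjusted p = 0.00154) in liver, both above all liver controls. Hspa8 was lost without either 7.5 kBq array or control replicate 2 or 3 (up to 0.0498), and Dnajb1 without either 7.5 kBq array or control replicate 3 (up to 0.041). Chordc1 in liver read 9.98 and 9.86 (0.75, adjusted p = 0.0133). Hsph1 in liver read 9.74 and 9.43 (1.12, adjusted p = 0.0611), and in spleen 9.66 and 9.40, within the controls.

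No member was called between activities at the same time. Between 105 and 1.7 kBq at 1 h, limma called 0 of 45 member tests and 5 had an unadjusted p under 0.05, where 0.0012% of all tests were called higher at 105 kBq. For Hsph1 the 95% interval of the difference was −0.42 to 0.46 in cortex, −0.64 to 0.17 in medulla, −0.82 to 0.54 in liver, −1.19 to 0.11 in lung and −0.90 to −0.06 in spleen. In spleen and medulla both 105 kBq arrays lay below the 3 arrays of 1.7 kBq (adjusted p = 0.944 and 1). Between 7.5 and 1.7 kBq at 6 h, 0 members were called, 4 had an unadjusted p under 0.05, and 0% of all tests were called higher. For Hsph1 the widest of these intervals was −0.88 to 0.48, in liver. Between 105 kBq at 1 h and 7.5 kBq at 6 h, both activity and time differ. Here limma called 0 of the 45 member tests, where 0% of all tests were called higher. An unadjusted p under 0.05 was found for 26, the nearest to a call being Hsph1 in spleen (1.70, adjusted p = 0.0495). The share of all tests with an unadjusted p under 0.05 was not counted, so such counts have no background beside them.

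Hsph1 was compared with the other probes over the 30 group means, each tissue's mean subtracted first. The points share arrays and tissues, so the correlations are descriptions. Among 13148 probes the nearest to Hsph1 was Stip1 (Pearson 0.95) and the next Chordc1 (0.94). The other members stood at rank 19 for Hspb1 (0.82), 34 for the brighter Hspa8 probe (0.80), 70 for the dimmer one (0.76), 88 for Hspa1a (0.74), 141 for Hsp90aa1 (0.70) and 198 for Dnajb1 (0.67). By this measure Dnajb1 was the least like Hsph1 among the members tested, with a difference of 0.03 at 1 h in spleen, where Hsph1 rose 4.28-fold. By Spearman correlation Stip1 ranked 3 and Chordc1 8, and over control-subtracted changes they ranked 1 and 5 and Hsp90aa1, at 0.52, was below Dnajb1, at 0.56.

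**Figure D4:**
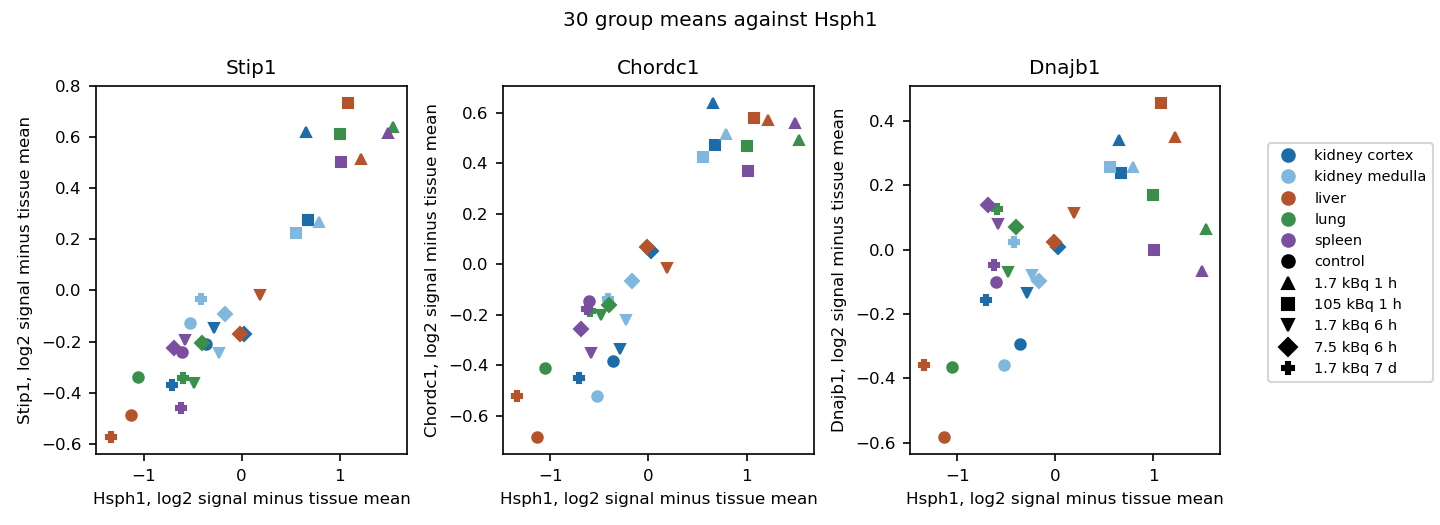
Group means of Stip1, Chordc1 and Dnajb1 against those of Hsph1, as log2 signal minus the tissue's mean, for 30 group means (5 tissues by colour, 6 groups by shape). Stip1 and Chordc1 follow Hsph1 (Pearson 0.95 and 0.94), and Dnajb1 does so less (0.67), with its spleen points flat.

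Among genes that are no members, those nearest to Hsph1 were Creld2 (0.93), Ttpal (0.91), Ubfd1 (0.90), Ahsa1 (0.90) and Pole4 (0.89). Creld2 encodes a protein of the endoplasmic reticulum that is induced by stress of that compartment, and Ahsa1 encodes an activator of the Hsp90 ATPase. At 1 h after 1.7 kBq Creld2 was called in cortex (1.40 ± 0.13, adjusted p = 0.000143), with differences of 0.88 to 1.82 in the other tissues. Ahsa1 was called in liver (0.72 ± 0.13, adjusted p = 0.00511). Ttpal, Ubfd1 and Pole4 were called in none, with differences of up to 0.71, 0.60 and 0.82.

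Other genes of the chaperone network were counted from lists, which were chosen with earlier results of these data known. Unlike the member counts of direction, all list counts keep any gene that passed the filter on low signals only with 1 h arrays. The lists of Hsp70 exchange factors and Hsp70 relatives, J proteins, small heat shock proteins, Hsp90 co-chaperones and heat shock factors had 52 of 55 genes on the array. At 1 h after 1.7 kBq, 8 of 235 gene tests in these lists were called higher and 0 lower, with 162 above 0. Of all tests at that time 0.229% were called higher and 48.9% were above 0, and the share called lower is not given here. None was called at 6 h or 7 d after 1.7 kBq, and 6 were called at 105 kBq.

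Hsp90 co-chaperones gave 5 of the 8 calls, in 86 tests. Fkbp5, an immunophilin that binds Hsp90 with steroid receptors and is itself a target of the glucocorticoid receptor, was the largest, at 2.12 ± 0.25 in cortex (adjusted p = 0.00107) and 1.56 ± 0.27 in liver (adjusted p = 0.00371). It was also called at 6 h after 7.5 kBq, at 2.07 in cortex and 1.72 in liver, where no member of the cortex was called. Its relative Fkbp4 was called in lung (0.89, adjusted p = 0.00222), and the co-chaperone Cdc37l1 in cortex (0.80, adjusted p = 0.00203). Exchange factors and relatives gave 2 calls in 48 tests, Bag3 in liver (0.65, adjusted p = 0.00108) and St13, the Hsp70-interacting protein Hip, in lung (1.03, adjusted p = 0.00392). The Hsp70 relative Hspa2 was called at 105 kBq, in liver (1.49, adjusted p = 0.000499). The J protein Dnajb2 was the 1 call of 50 in its list, in liver (0.73, adjusted p = 0.000484).

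The small heat shock proteins other than Hspb1 had 0 calls in 26 tests and 8 differences above 0, and the heat shock factors and their regulators 0 calls in 25. Chaperones of other compartments were counted for comparison. The chaperonins had 1 call in 50 tests, Hspd1 of mitochondria in lung (0.75, adjusted p = 0.00512), and those of the endoplasmic reticulum 1 call in 56, Creld2 in cortex, with 51 of the 56 differences above 0. The cold-inducible RNA-binding proteins Cirbp and Rbm3 are known to fall when cells are warmed. At 1 h after 1.7 kBq 10 of their 10 differences were below 0, none of them called, where 48.9% of all tests were above 0. All 10 were also below 0 at 6 h after 1.7 kBq and at 6 h after 7.5 kBq, none called. The medians of all tests there were −0.004 and −0.008. At 7 d after 1.7 kBq, 6 of the 10 were above 0. At 105 kBq Cirbp fell by 1.17 in liver (adjusted p = 0.00687), whereas Rbm3 differed there by 0.29 and in cortex by 0.15, both above 0 and not called. The part of body temperature in the chaperone result was not tested.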

How the data were processed

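Per the labels, RNA of 5 tissues was hybridised to Illumina MouseRef-8 BeadChips. The authors made quantile-normalised signals with Illumina software and BASE (versions not given in the sources used here) and used Nexus Expression for later steps. The deposited intensities are on a linear scale, with 1 column per mouse and tissue, although the methods state technical triplicates. The signals before normalisation, with detection p-values, were not used here, because none of those 80 signal and 80 detection columns could be paired with a sample by name. The methods name phosphate-buffered saline for the control injection, where the drawing of the design names physiological saline. RNA had passed a quality limit stated in the methods. Tissues were taken after pentobarbital anaesthesia and cardiac puncture.

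Log2 of the deposited intensities was fitted with limma 3.58.1 in R 4.3.3, with 1 fit per tissue and 6 group means, so that groups of 2 and 3 mice share 1 estimate of the spread. The Benjamini-Hochberg adjustment ran over the probes kept in a tissue, comparison by comparison, 15931 in lung to 17994 in liver. The thresholds, an adjusted p under 0.01 and 1.5-fold, are those of the methods. Background was set from the values, at the 99% point of the normal spread under the mode of all signals, and 53.1% of values exceeded it. Of all probes, 23978 had 1 gene symbol in the platform annotation and 1719 had none or several. Of several probes of a gene, the one with the highest mean over the 80 arrays is described in full. Named genes are the 10 members, the 5 other genes most like Hsph1, and 2 to 4 called genes per list with the largest changes. Gene positions and promoter windows come from RefSeq tables on GRCm38.p6, where 7 of the 10 members had a promoter entry.

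The same-numbered arrays of different groups showed no steady pairing: 22 of 65 correlations of their deviations were over 0.1, in a range of −0.41 to 0.37. Groups of 2 arrays give the same value for both arrays, so the 65 are not all separate, and pairs are not excluded. The highest correlation between 2 arrays was 0.994 and no pair of arrays was identical. The scripts were tested on simulated data. Alternatives were the filter, the background, the normalisation, the form of the fit, the threshold and each array left out in turn. The members and lists were chosen with earlier results of these data known.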

Additional observations from a re-analysis of the deposited data

Results flagged for a closer look

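The effect of 1.7 kBq at 1 h differed between the 5 tissues for 3 member probes in the limma F test: the brighter Hspa8 probe (adjusted p = 0.000234), Dnajb1 (0.00705) and Hsph1 (0.00798). The brighter Hspa8 probe was called in liver alone and is at the top of the scale in the other tissues. Its difference had an adjusted p of 0.108 after cyclic loess, and the dimmer Hspa8 probe, with its largest change in lung (0.99), gave 0.665. The largest difference of Hsph1 was in lung, and Dnajb1 had its smallest, 0.03, in spleen. Tissues of 1 mouse are not independent in this test.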

How the results depend on the processing

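The numbers of member calls changed with how the spread was estimated and with the threshold. With only the 2 groups compared in each fit, calls numbered 6 at 1 h after 1.7 kBq, 0 at 6 h, 1 at 6 h after 7.5 kBq, 0 for 1 h against 6 h and 0 for 6 h against 7 d. With all 80 arrays in 1 fit they numbered 22 at 1 h, 14 at 105 kBq, 4 at 7.5 kBq, 10 for 1 h against 6 h, 19 for 1 h against 7 d, 2 for 6 h against 7 d and 1 for 105 kBq 1 h against 7.5 kBq 6 h. An adjusted p under 0.05 with no minimum fold change gave 22 at 1 h, 4 at 6 h, 15 at 105 kBq, 10 for 1 h against 6 h, 20 for 1 h against 7 d, 3 for 6 h against 7 d and 1 for 105 kBq 1 h against 7.5 kBq 6 h. Subtracting the background gave 1 at 6 h, 0 at 7.5 kBq, 2 for 1 h against 6 h, 6 for 1 h against 7 d and 0 for 6 h against 7 d. Testing all probes with no filter gave 0 for 6 h against 7 d, and cyclic loess left 1 probe, Dnajb1, with a difference between tissues. The cause of these changes was not tested.

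With each array left out in turn, calls ranged from 10 to 16 at 1 h after 1.7 kBq, 2 to 3 at 6 h, 5 to 9 at 105 kBq, 0 to 4 at 7.5 kBq, 1 to 5 for 1 h against 6 h, 9 to 14 for 1 h against 7 d, 0 to 1 for 6 h against 7 d and 0 to 1 for 105 kBq 1 h against 7.5 kBq 6 h, and from 1 to 3 for differences between tissues. At 7.5 kBq the count was 4 without liver 1.7 kBq 6 h replicate 1, 1 without liver control replicate 2, and 0 without either liver 7.5 kBq array or liver control replicate 3. For 105 kBq 1 h against 7.5 kBq 6 h it was 1 without cortex 7.5 kBq 6 h replicate 2 or spleen control replicate 1 or 3. For 1 h against 6 h it was 1 without cortex 1 h replicate 1 or 6 h replicate 1, and 2 without cortex 1 h replicate 2 or 3, 6 h replicate 3, 7 d replicate 1 or 2, or control replicate 1 or 2. For 6 h against 7 d it was 0 without any of the 8 liver arrays named above for Hspa8. Differences between tissues numbered 1 without liver 1 h replicate 1 or 2, liver control replicate 2 or 3, spleen 1 h replicate 3 or spleen control replicate 2.

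Of the 40 called changes, 20 stayed called whichever array was left out, 13 stayed called under every alternative, and none reversed. The replicate numbers as a block, which the data do not bear out as pairs, kept 37 of the 40 and gave 17 calls at 1 h. Groups of 2 or 3 arrays, values near background for Hspa1a in liver and spleen, and the bright end of the scale for Hspa8 limit what differences could be seen. In likeness to Hsph1, Creld2 ranked 20 and Ubfd1 64 over control-subtracted changes of the 25 exposed groups, and Ahsa1 ranked 32 by Spearman correlation, by which Ubfd1 ranked 1 and Pole4 2, ahead of Stip1.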
